A study of Mus musculus with 32 samples.

Results

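A set of 10 immediate early genes outside the AP-1 family was followed in primary mouse astrocytes, the glial cells that support neurons and respond to inflammatory signals in the brain. They were Egr1, Egr2, Nr4a1, Ier2, Ier3, Klf2, Klf4, Klf6, Btg2 and Zfp36, picked by symbol, and each matched 1 row, 10 of the 21899 genes in the deposited table. The list cites no value, but it was drawn up with results of these data known. Among those known results were lower levels of Nr4a1 and Ier2 with LPS at 4 h, so that comparison, and the interaction at 4 h, which contains it, are given below as descriptions with no test. Values of PBM against Control may have been known too. For the other comparisons the p-values set the differences against the spread between libraries and, like the ranks, are not independent support for the choice of genes. Cultures received LPS and photobiomodulation together (LPS+PBM), LPS alone (lipopolysaccharide, a bacterial cell wall component), photobiomodulation alone (PBM, treatment with light), or neither (Control). RNA was taken after 24 h or 4 h, giving 8 groups of 4 libraries. Strain, animal age, and the light's wavelength and dose are not known here. Since no label states that the 4 libraries of a group are separate cultures, the p-values describe the scatter between these samples, which may be technical.

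Immediate early genes are transcribed within minutes of a stimulus, without new protein synthesis, mostly through ERK and p38 kinases acting on serum response factor and CREB at their promoters, and several are also NF-kappaB targets. Their mRNAs are short-lived, so their levels follow ongoing signalling closely. The EGR and KLF proteins are zinc finger transcription factors, Nr4a1 encodes the orphan nuclear receptor Nur77, and Zfp36 encodes tristetraprolin, which binds AU-rich mRNAs such as those of cytokines and promotes their decay. In astrocytes these genes respond to growth factors, injury and inflammatory signals.

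The promoters of the members were read from RefSeq (GRCm38.p6) to show which early response elements their letters hold. Of the 10 members, 8 besides Egr1 and Ier2 were matched. The 250 bases before the start were searched on both strands for the CArG box bound by serum response factor, the cyclic AMP response element TGACGTCA, its core TGACG, which lies within the full element, the EGR site GCGNGGGCG, the AP-1 site TGANTCA and the NF-kappaB site. The core was added after the sequences were seen. Shown are the promoters of Nr4a1 (chr15:101266596-101266845, plus strand), whose level changed most with PBM, of Egr2 (chr10:67537619-67537868, plus strand, the third of 5 listed starts) and Zfp36 (chr7:28379229-28379478, minus strand), which hold CArG boxes, of Btg2 (chr1:134079156-134079405, minus strand), which holds the full cyclic AMP element, and of Ier3 (chr17:35821463-35821712, plus strand), which holds an NF-kappaB site. Capitals mark the letters that match a searched element.
Nr4a1: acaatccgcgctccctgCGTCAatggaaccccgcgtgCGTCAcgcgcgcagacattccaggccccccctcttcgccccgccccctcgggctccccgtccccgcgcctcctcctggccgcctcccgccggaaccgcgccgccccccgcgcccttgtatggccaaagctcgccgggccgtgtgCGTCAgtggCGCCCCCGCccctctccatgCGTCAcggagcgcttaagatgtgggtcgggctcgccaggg
Egr2: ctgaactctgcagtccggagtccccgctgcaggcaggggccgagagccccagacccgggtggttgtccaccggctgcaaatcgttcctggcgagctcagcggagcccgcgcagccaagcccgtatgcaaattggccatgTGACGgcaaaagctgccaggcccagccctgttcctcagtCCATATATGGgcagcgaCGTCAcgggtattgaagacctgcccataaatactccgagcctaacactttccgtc
Zfp36: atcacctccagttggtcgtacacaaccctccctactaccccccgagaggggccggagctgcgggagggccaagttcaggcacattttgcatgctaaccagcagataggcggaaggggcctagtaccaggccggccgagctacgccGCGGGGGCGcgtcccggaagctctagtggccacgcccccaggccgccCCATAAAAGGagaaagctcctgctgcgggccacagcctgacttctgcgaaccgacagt
Btg2: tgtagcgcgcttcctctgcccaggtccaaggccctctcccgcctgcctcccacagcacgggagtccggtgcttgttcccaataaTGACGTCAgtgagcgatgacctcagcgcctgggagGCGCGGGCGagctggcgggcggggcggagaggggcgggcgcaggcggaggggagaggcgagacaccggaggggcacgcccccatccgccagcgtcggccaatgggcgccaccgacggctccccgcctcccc
Ier3: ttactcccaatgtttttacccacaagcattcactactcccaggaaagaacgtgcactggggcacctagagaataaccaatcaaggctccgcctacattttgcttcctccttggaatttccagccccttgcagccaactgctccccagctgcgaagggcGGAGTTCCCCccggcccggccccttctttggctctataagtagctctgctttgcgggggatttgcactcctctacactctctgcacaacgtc

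The Nr4a1 promoter held 4 cores of the cyclic AMP element, with first bases at -233, -213, -69 and -40 from the start, all read as CGTCA on the printed strand, and an EGR site at -60. The core was present in 5 of the 8 members with a promoter (Egr2, Nr4a1, Klf2, Klf4 and Btg2), against 19.8% of the 27025 genes with a promoter in the table. The EGR site was present in 5 of the 8 (Nr4a1, Klf2, Klf4, Btg2 and Zfp36), against 5.33% of those genes. The CArG box was present in 2 of the 8, against 1.62%, the full cyclic AMP element in 1, against 1.77%, the NF-kappaB site in 1, against 4.46%, and the AP-1 site in 0, against 7.82%. Base composition was not matched in these shares, and a match of letters shows no binding. On GRCm38 (mm10) the members other than Egr1 (ENSMUSG00000038418) lie as follows, all of them protein-coding: Egr2 (ENSMUSG00000037868) at chr10:67535475-67542188, Nr4a1 (ENSMUSG00000023034) at chr15:101254269-101274795, Ier2 (ENSMUSG00000053560) at chr8:84661331-84662852, Ier3 (ENSMUSG00000003541) at chr17:35821684-35822923, Klf2 (ENSMUSG00000055148) at chr8:72319033-72321656, Klf4 (ENSMUSG00000003032) at chr4:55527143-55532466, Klf6 (ENSMUSG00000000078) at chr13:5861482-5870394, Btg2 (ENSMUSG00000020423) at chr1:134075170-134079120 and Zfp36 (ENSMUSG00000044786) at chr7:28376784-28380253.

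On average over all libraries the members were well expressed for a table this shallow, but some group values rest on few fragments. Levels are FPKM, fragments scaled by the authors to transcript length and library size. From the steps between low FPKM values, each library holds 130450 to 143900 fragments. A single fragment adds 6.95 to 7.67 FPKM to a transcript of 1 kb, and less to a longer one. Over all 32 libraries Egr1 averaged 172 FPKM and Klf2, the least abundant member, 25.0 FPKM. All 10 members entered every test. All 10 astrocyte markers were in the table, with sums of 1460 to 1622 FPKM in PBM and 1594 to 1822 FPKM in Control at 24 h. Most of the astrocyte sum is Vim in every group (on average 1345 FPKM in PBM and 1432 FPKM in Control at 24 h). Of the 10, 9 had a fold change below 0 in PBM against Control at 24 h. S100b was listed at 0 in all libraries of PBM and LPS at 4 h and of LPS at 24 h. No marker of the 6 cell type lists passed the test between PBM and Control at either time. The neuron genes Rbfox3 and Snap25, the oligodendrocyte gene Mog and the endothelial gene Cldn5 were listed at 0 in all libraries, but the rest of these lists was not. In Control at 24 h 5 neuron markers summed to 48.4 to 73.8 FPKM, with Stmn2 at 44.8 FPKM on average. There 8 oligodendrocyte lineage markers summed to 37.9 to 54.5 FPKM, and 6 endothelial and mural markers, mostly Acta2, to 899 to 1017 FPKM. The 5 fibroblast and meningeal markers summed to 658 to 1510 FPKM over all libraries. In bulk RNA, fewer expressing cells and less RNA per cell cannot be told apart.

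**Figure D1:**
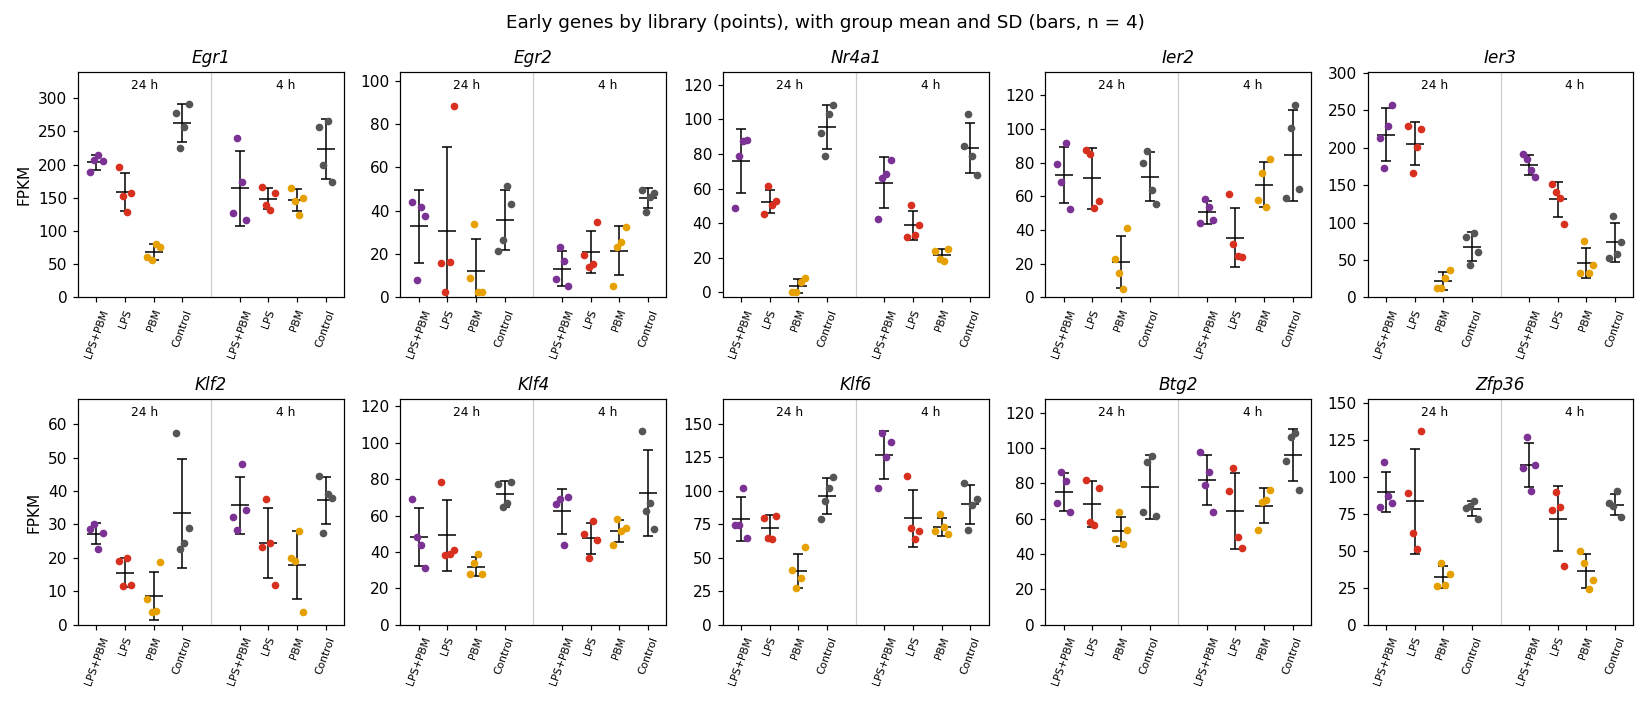
FPKM of each early gene in each library (points) with the group mean and SD (bars, n = 4), by treatment, at 24 h on the left and 4 h on the right of each panel. At 24 h the 4 PBM libraries lay below all 4 Control libraries in 8 of the 10 genes, where they did in 1.79% of all genes tested. LPS+PBM libraries of Nr4a1 reached 48.6 to 87.9 FPKM at 24 h where PBM libraries reached at most 8.45 FPKM.

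PBM was compared with Control first, to see what light did to these genes without LPS. At 24 h the whole group was low. All 10 members had a lower mean in PBM, in 8 of them every PBM library lay below every Control library, and 4 passed the test: Egr1, Nr4a1, Ier3 and Klf6 fell. Over all 13278 genes tested, limma called 0.0979% lower (13 genes), and groups did not overlap, with PBM lower, in 1.79%. The median log2 fold change was -1.80 over the 10 members and 0.00 over all genes tested. Fold changes are differences of group means of log2(FPKM + 1), given with their SE, and adjusted p-values are from limma with Benjamini-Hochberg adjustment over all genes tested.

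Nr4a1 was listed at 0, 0, 5.92 and 8.45 FPKM in the PBM libraries at 24 h, against 91.8, 79.0, 103 and 108 FPKM in Control. The PBM values rest on about 5.14 fragments in all and the Control values on about 130.9. The PBM libraries all lay far below the Control libraries, with means of 3.59 FPKM in PBM and 95.4 FPKM in Control. The fitted change was -5.07 ± 0.56 (adjusted p = 9.04e-05), and its size depends on the added 1 because of the libraries listed at 0.

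Egr1, the zinc finger factor that carries growth factor and ERK signals to its targets, stood at 60.7, 55.9, 80.5 and 76.4 FPKM in PBM at 24 h, against 278, 225, 257 and 291 FPKM in Control. The highest PBM library was below the lowest Control library by a wide gap, with a PBM mean 26.0% of that in Control. Egr1 had the smallest p of all 13278 genes (log2 fold change -1.94 ± 0.16, adjusted p = 5.16e-06). Its relative Egr2 was more variable, at 9.04, 33.9, 2.47 and 2.62 FPKM in PBM and 21.5, 26.6, 51.3 and 43.2 FPKM in Control. PBM replicate 2 of Egr2 lay inside the Control range and the difference did not pass (-2.09 ± 0.83, adjusted p = 0.737).

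Ier3, a stress- and NF-kappaB-induced regulator of cell survival, stood at 12.4, 12.9, 25.9 and 37.0 FPKM in PBM at 24 h, against 80.4, 43.3, 86.2 and 60.9 FPKM in Control (-1.67 ± 0.30, adjusted p = 0.0257). The groups did not overlap, but the highest PBM library came close to the lowest Control library. These PBM values rest on about 13.98 fragments in all and the Control values on about 41. Ier2, a nuclear early response protein, stood at 22.9, 14.4, 4.81 and 41.2 FPKM in PBM and 79.6, 87.1, 64.0 and 55.2 FPKM in Control. Its groups were separate too, but its change of -2.04 ± 0.42 missed the threshold (adjusted p = 0.0846). It passed, as did Klf2, when PBM replicate 4, the highest PBM library of both genes, was left out (adjusted p = 0.00623 for Ier2 and 0.0117 for Klf2).

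Among the KLF genes, Klf6, an injury-induced factor, stood at 40.9, 27.6, 34.7 and 57.8 FPKM in PBM at 24 h, against 79.0, 92.6, 102 and 110.4 FPKM in Control (-1.27 ± 0.23, adjusted p = 0.0264). Klf2, a factor known for keeping endothelial cells quiescent, stood at 7.57, 3.95, 3.97 and 18.9 FPKM in PBM and 57.5, 22.7, 24.4 and 29.0 FPKM in Control. The PBM values of Klf2 rest on about 8.99 fragments in all and the Control values on about 33. Klf4, one of the factors used to reprogram cells to pluripotency, averaged 32.0 ± 5.40 FPKM in PBM and 71.8 ± 7.11 FPKM in Control (SD, n = 4 each). In both Klf2 (-1.99 ± 0.44, adjusted p = 0.128) and Klf4 (-1.15 ± 0.28, adjusted p = 0.236) the groups were separate without passing the test.

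Zfp36 stood at 25.8, 41.7, 26.8 and 34.2 FPKM in PBM at 24 h, against 78.8, 80.2, 83.3 and 71.3 FPKM in Control. Every PBM library was far below Control, but its change of -1.28 ± 0.26 did not pass (adjusted p = 0.0691). Exons of Zfp36 overlap the antisense transcript Gm44710 in the annotation, and since no source says whether counting used strand, reads of the pair cannot be told apart. Btg2, an antiproliferative early gene, averaged 52.8 ± 8.07 FPKM in PBM and 78.1 ± 18.1 FPKM in Control, and its libraries overlapped (-0.54 ± 0.22, adjusted p = 0.754). Egr1 and Nr4a1 passed in all 8 fits that left out 1 library (adjusted p at most 7.21e-05 and 0.000821). Ier3 lost its call without Control replicate 1, 3 or 4 or PBM replicate 1 or 2 (adjusted p up to 0.12), and Klf6 without Control replicate 2, 3 or 4 or PBM replicate 1, 2 or 3 (adjusted p up to 0.135). The number of members that passed ranged from 2 (without Control replicate 3 or 4 or PBM replicate 1 or 2) to 6 (without PBM replicate 4), and it was 2 without the 6 libraries listed last in the table. The sum of 12 microglia markers was 377 to 536 FPKM in PBM and 411 to 498 FPKM in Control at 24 h. Of the 10 astrocyte markers 9 had a fold change below 0 (median -0.68) and 0 passed. Their sum is mostly Vim, at 1345 FPKM in PBM and 1432 FPKM in Control on average. Gfap, the intermediate filament gene that marks astrocytes, stood at 29.0 to 49.8 FPKM in PBM and 52.9 to 89.0 FPKM in Control, with no overlap. The part of these markers in the result was not tested.

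At 4 h the same direction was seen at smaller size. All 10 members again had a lower mean in PBM than in Control, 5 had separate groups (Egr1, Egr2, Nr4a1, Btg2 and Zfp36), and Nr4a1 fell. Over the 13247 genes tested, 0.0302% were called lower (4 genes), groups did not overlap with PBM lower in 1.35%, and the median log2 fold change was -0.65 over the members and 0.00 over all genes. Nr4a1 stood at 23.8, 19.3, 18.0 and 25.3 FPKM in PBM, against 84.4, 103, 78.9 and 67.6 FPKM in Control. The PBM libraries of Nr4a1 lay close together and well under the Control libraries (-1.90 ± 0.25, adjusted p = 0.00394), the smallest p of all genes at that time. These Control libraries are also those of LPS against Control at 4 h, where Nr4a1 was known to be lower with LPS. The p-value and rank of Nr4a1 here are therefore not independent of the choice of genes.

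Zfp36 stood at 49.8, 41.4, 24.1 and 29.9 FPKM in PBM at 4 h and 81.9, 80.3, 90.0 and 72.5 FPKM in Control. The groups were separate, without passing (-1.19 ± 0.26, adjusted p = 0.202). Egr1 averaged 146 ± 16.5 FPKM in PBM and 224 ± 44.9 FPKM in Control at 4 h (-0.60 ± 0.21, adjusted p = 0.782), and Egr2 21.6 ± 11.4 FPKM in PBM and 45.9 ± 4.62 FPKM in Control (-1.27 ± 0.50, adjusted p = 0.838). Btg2 averaged 67.4 ± 9.65 FPKM in PBM and 95.8 ± 14.7 FPKM in Control (-0.50 ± 0.24, adjusted p = 0.939). Sums of 5 neuron markers (29.9 to 42.1 FPKM in PBM, 47.7 to 74.4 FPKM in Control) were lower in PBM at 4 h too, with Rbfox3 and Snap25 at 0, and 8 of 10 astrocyte markers were below 0 (median -0.18, with 0 called). The part of either list in these differences was not tested. The other members had changes between -1.28 (Klf2) and -0.28 (Klf6), with overlapping libraries and adjusted p of 0.787 to 0.973.

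The difference of the PBM effect between 24 h and 4 h was tested in a fit of all libraries, a comparison added after the values had been seen. All 10 members had a lower estimate at 24 h, with a median difference of -0.89 against 0.00 over all 13937 genes tested. Limma with Benjamini-Hochberg adjustment called 0 members and 0.00718% of all genes (1 gene), with 700 genes at an unadjusted p under 0.05. Egr1 (-1.34 ± 0.26) and Nr4a1 (-3.18 ± 0.64) had the second and the third smallest p of all genes, both with an adjusted p = 0.0923. Egr1 passed without PBM replicate 3 at 24 h (adjusted p = 0.0365), and Nr4a1 without PBM replicate 3 or 4 (adjusted p = 0.0143 and 0.00132). The estimates of Zfp36 (-0.10 ± 0.37, 95% interval -0.84 to 0.65) and Btg2 (-0.04 ± 0.31, 95% interval -0.68 to 0.60) were small. Their intervals include larger differences in either direction. Within the PBM libraries themselves, 24 h against 4 h, Egr1 (-1.09 ± 0.18, adjusted p = 0.000622), Nr4a1 (-2.98 ± 0.45, adjusted p = 0.000136), Ier2 (-1.95 ± 0.38, adjusted p = 0.00344) and Klf6 (-0.89 ± 0.21, adjusted p = 0.021) fell. Those were 4 of 10 members, where 0.545% of all genes were called lower. These and Klf4 had every 24 h library below every 4 h library, where 2.84% of genes did. Klf6 lost its call without PBM replicate 2 or 3 at either time (adjusted p up to 0.116). Fibroblast and meningeal markers summed to 1293 to 1510 FPKM in PBM at 24 h and 1019 to 1116 FPKM in PBM at 4 h, and their part was not tested. In Control, LPS and LPS+PBM, 24 h against 4 h, none of the 10 members passed limma's test, while 1.11%, 1.33% and 3.01% of genes were called. Time after treatment, age of the culture and handling by time cannot be told apart.

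**Figure D2:**
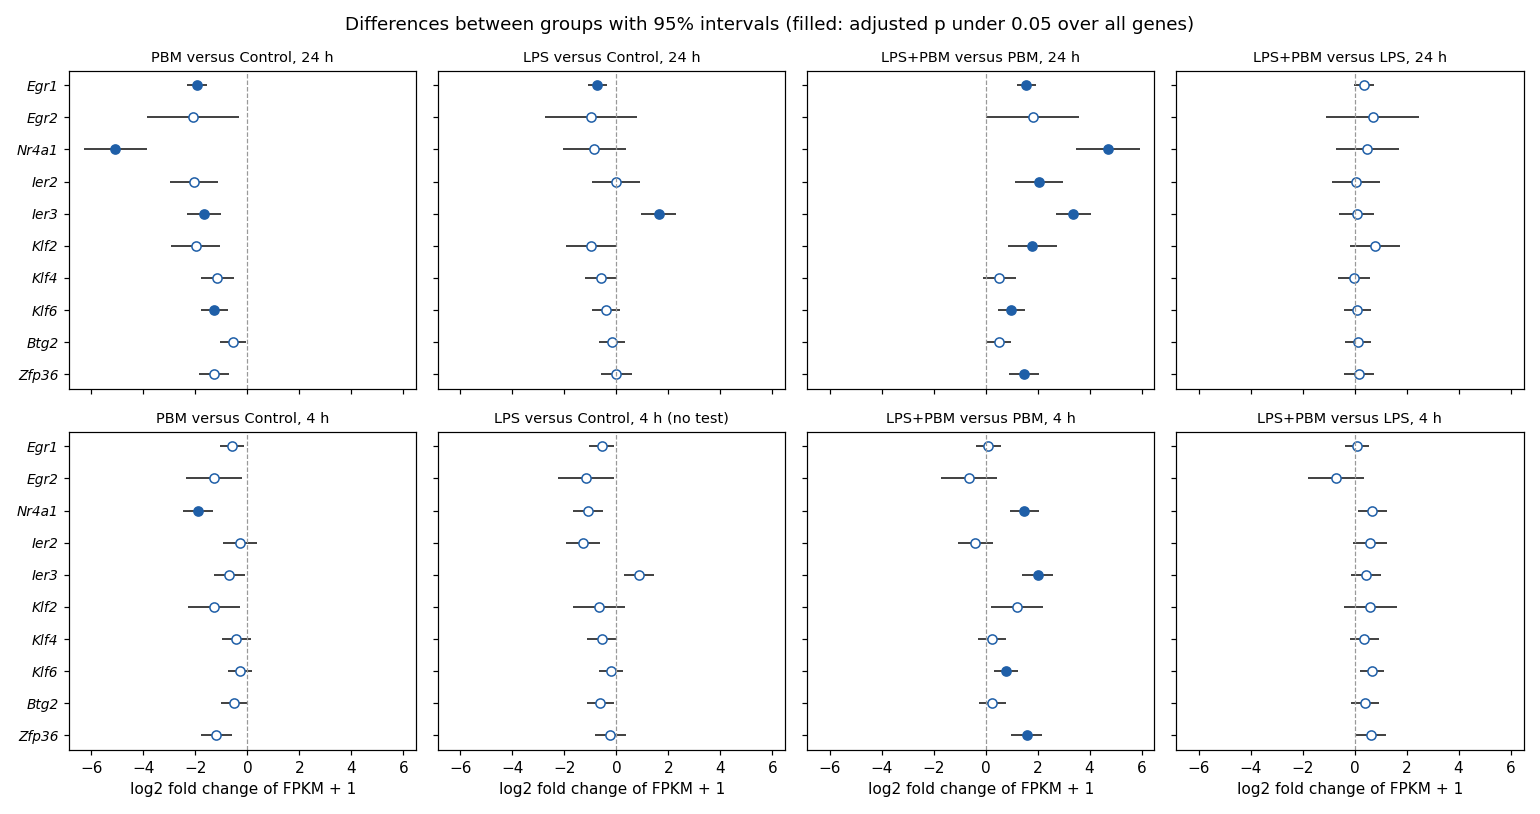
Log2 fold change of each early gene (circles) with its 95% interval (lines) in the 4 pairwise comparisons at 24 h (top) and 4 h (bottom), with filled circles at an adjusted p under 0.05 over all genes and all circles open in LPS versus Control at 4 h, which has no test. PBM versus Control lies below 0 in every gene at both times, LPS+PBM versus PBM lies above 0 in every gene at 24 h and in 8 of 10 at 4 h, and none of these genes passed in LPS+PBM versus LPS.

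At 24 h most members stood well above their PBM levels when LPS was present. LPS+PBM was compared with PBM to describe the LPS response under light. It uses libraries outside the comparison of LPS with Control at 4 h, but it shares the PBM libraries with the comparisons above, so that low PBM values enter both. At 24 h all 10 members had a higher mean in LPS+PBM, 7 had separate groups, and the same 7 rose: Egr1, Nr4a1, Ier2, Ier3, Klf2, Klf6 and Zfp36. Of all genes 1.81% were called higher, groups did not overlap with LPS+PBM higher in 3.74%, and the median log2 fold change was 1.69 over the members and -0.08 over all genes.

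Nr4a1 stood at 48.6, 78.7, 87.4 and 87.9 FPKM in LPS+PBM at 24 h, against the 0 to 8.45 FPKM of PBM (4.71 ± 0.56, adjusted p = 2.61e-05). Ier3 stood at 213, 172, 228 and 257 FPKM in LPS+PBM, against 12.4 to 37.0 FPKM in PBM, 9.87 times the PBM mean (3.37 ± 0.30, adjusted p = 6.04e-07). Egr1 stood at 188, 206, 214 and 205 FPKM in LPS+PBM, against 55.9 to 80.5 FPKM in PBM (1.57 ± 0.16, adjusted p = 4.65e-06). In each of these genes the lowest LPS+PBM library was over 2 times as high as the highest PBM library.

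Zfp36 averaged 89.6 ± 13.7 FPKM in LPS+PBM at 24 h and 32.1 ± 7.38 FPKM in PBM (1.47 ± 0.26, adjusted p = 0.00249). Ier2 averaged 72.9 ± 16.6 FPKM in LPS+PBM and 20.8 ± 15.5 FPKM in PBM (2.06 ± 0.42, adjusted p = 0.00822). Klf2 (1.80 ± 0.44, adjusted p = 0.0276) and Klf6 (0.99 ± 0.23, adjusted p = 0.0225) rose too. Klf2 lost its call without PBM replicate 1, 2 or 3 or LPS+PBM replicate 1, 2 or 4 (adjusted p up to 0.0944), and Klf6 without PBM replicate 2 or 3 or LPS+PBM replicate 3 (adjusted p up to 0.0879). Without the 6 last-listed libraries 4 members passed, and Ier2 (adjusted p = 0.116), Klf2 and Klf6 did not. Egr2 (1.81 ± 0.83), Klf4 (0.53 ± 0.28) and Btg2 (0.50 ± 0.22) had overlapping libraries and did not pass (adjusted p = 0.361, 0.45 and 0.331). Marker sums of these groups did not overlap in the astrocyte, microglia and endothelial and mural lists, and overlapped in the fibroblast, neuron and oligodendrocyte lineage lists. Astrocyte markers summed to 892 to 1052 FPKM in LPS+PBM and 1460 to 1622 FPKM in PBM. Most of that sum is Vim (on average 874.7 FPKM in LPS+PBM and 1345 FPKM in PBM). Of the 10 astrocyte markers 9 had a fold change below 0 and 1 above. Microglia markers summed to 201 to 327 FPKM in LPS+PBM and 377 to 536 FPKM in PBM. The 6 endothelial and mural markers, with Cldn5 at 0, summed to 518 to 751 FPKM in LPS+PBM and 887 to 1074 FPKM in PBM. Nearly all of that sum is Acta2 (on average 623.5 FPKM in LPS+PBM and 952 FPKM in PBM). The part of these markers in the result was not tested.

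At 4 h Nr4a1, Ier3, Klf6 and Zfp36 rose in LPS+PBM against PBM, 4 of 10 members where 1.8% of genes were called higher, and these and Klf2 had separate groups where 3.86% of genes had. Ier3 stood at 191, 184, 170 and 161 FPKM in LPS+PBM, against 32.5, 74.9, 32.9 and 43.1 FPKM in PBM (2.01 ± 0.26, adjusted p = 9.5e-05). Zfp36 stood at 106, 127, 90.6 and 108 FPKM in LPS+PBM, against the 24.1 to 49.8 FPKM of PBM (1.59 ± 0.26, adjusted p = 0.00122). Nr4a1 averaged 63.3 ± 14.8 FPKM in LPS+PBM and 21.6 ± 3.48 FPKM in PBM (1.49 ± 0.25, adjusted p = 0.00144). The call of Klf6 (0.78 ± 0.20, adjusted p = 0.0447) was lost with quantile normalization (adjusted p = 0.0555) and without any 1 of the PBM libraries or LPS+PBM replicate 2, 3 or 4 (adjusted p up to 0.124). Egr1 stood at 126, 240, 173 and 117 FPKM in LPS+PBM at 4 h, which spanned the PBM range of 124 to 164 FPKM (0.11 ± 0.21, adjusted p = 0.844). Its fitted change was -0.09 without LPS+PBM replicate 2, its highest library. Fibroblast and meningeal markers summed to 658 to 826 FPKM in LPS+PBM and 1019 to 1116 FPKM in PBM at 4 h. Of the 10 astrocyte markers 9 were above 0 (median 0.67) and 0 passed, with Gfap at 47.5 to 73.5 FPKM in LPS+PBM and 22.3 to 47.4 FPKM in PBM, without overlap. The part of either list was not tested.

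The interaction of LPS and PBM asks whether the difference made by light depended on LPS. All 10 members had a positive interaction at both times, that is, LPS+PBM was higher against LPS than PBM was against Control. At 24 h the median was 1.92 over the members and -0.01 over all genes, at 4 h 0.93 and -0.07. Egr1 passed at 24 h (2.31 ± 0.23, adjusted p = 8.16e-05), with the smallest p of all genes, and 0.0452% of genes were called in that direction. Nr4a1 passed at 24 h too (5.56 ± 0.79, adjusted p = 0.00576). The interaction at 4 h contains the known difference of LPS from Control, so its values are a description with no test: 2.59 ± 0.36 for Nr4a1 and between 0.55 (Egr2) and 1.89 (Klf2) for the other 9. The Nr4a1 call at 24 h was lost with a pseudocount of 0.1 (adjusted p = 0.263), a setting that gives more weight to the 2 PBM libraries listed at 0. Without the 6 last-listed libraries Nr4a1 did not pass at 24 h (5.38, adjusted p = 0.0766). None of the other 8 members passed at 24 h (adjusted p of 0.242 to 0.912), and Klf2 passed without PBM replicate 4 (adjusted p = 0.0297). Astrocyte markers also had positive interactions, in 8 of 10 at 24 h (median 0.26) and 10 of 10 at 4 h (median 0.95), as did all 4 endothelial and mural markers tested at 24 h (median 0.52), with 0 called. Their part in the result was not tested.

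LPS without light was then set against Control. At 24 h Ier3 rose and Egr1 fell. Ier3 stood at 229, 166, 201 and 226 FPKM in LPS, against 80.4, 43.3, 86.2 and 60.9 FPKM in Control, with all LPS libraries above all Control libraries (1.63 ± 0.30, adjusted p = 0.00372). Egr1 stood at 196, 153, 128 and 157 FPKM in LPS, against 225 to 291 FPKM in Control (-0.73 ± 0.16, adjusted p = 0.0163), a call lost without Control replicate 1 or 4 or LPS replicate 3 (adjusted p up to 0.0661) and without the 6 last-listed libraries (adjusted p = 0.143). Of all genes 1.62% were called higher and 0.941% lower. Nr4a1 (45.3 to 61.2 FPKM in LPS, 79.0 to 108 FPKM in Control) and Klf2 (11.7 to 19.9 FPKM in LPS, 22.7 to 57.5 FPKM in Control) also had all LPS libraries below Control, without passing (adjusted p = 0.583 and 0.333). Groups did not overlap in 3.59% of genes with LPS higher and in 4.35% with LPS lower. Astrocyte markers summed to 849 to 1073 FPKM in LPS and 1594 to 1822 FPKM in Control at 24 h. Most of that sum is Vim (on average 800.7 FPKM in LPS and 1432 FPKM in Control). Of the 10 astrocyte markers 9 had a fold change below 0 and 1 above. Microglia markers summed to 281 to 322 FPKM in LPS and 411 to 498 FPKM in Control. Endothelial and mural markers summed to 611 to 625 FPKM in LPS and 899 to 1017 FPKM in Control, nearly all of it Acta2 (on average 610.5 FPKM in LPS and 957 FPKM in Control). The part of these markers in the result was not tested.

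At 4 h the values of LPS against Control were among the results known when the members were chosen and are given without a test. Nr4a1 stood at 31.8, 50.5, 33.4 and 38.9 FPKM in LPS, against 84.4, 103, 78.9 and 67.6 FPKM in Control, and Ier2 at 61.2, 31.9, 24.7 and 24.3 FPKM in LPS, against 58.8, 100.3, 114 and 64.1 FPKM in Control. The LPS libraries of Nr4a1 all lay below Control, and those of Ier2 all but 1. Egr1 averaged 149 ± 15.8 FPKM in LPS and 224 ± 44.9 FPKM in Control, and Egr2 21.1 ± 9.57 FPKM in LPS and 45.9 ± 4.62 FPKM in Control. Ier3 was the only member with a higher mean, at 131 ± 23.3 FPKM in LPS and 73.5 ± 25.6 FPKM in Control. Astrocyte markers summed to 1345 to 1566 FPKM in LPS and 1660 to 1871 FPKM in Control at 4 h. Most of that sum is Vim (on average 1330 FPKM in LPS and 1579 FPKM in Control). Fibroblast and meningeal markers summed to 721 to 981 FPKM in LPS and 985 to 1257 FPKM in Control. The part of these markers in these differences was not tested.

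Adding light to LPS moved no member past the test at either time. LPS+PBM had a positive fold change over LPS in 9 of 10 members at 4 h, with a median log2 fold change of 0.52 against -0.02 over all genes, and in 9 of 10 at 24 h (median 0.16 against 0.00). Limma called 0 genes (0%) at 4 h, where 997 genes had an unadjusted p under 0.05, and 1 gene at 24 h (0.00753%), which was no member, with 683 genes at an unadjusted p under 0.05. At 4 h Ier3 (161 to 191 FPKM in LPS+PBM, 98.2 to 152 FPKM in LPS) and Zfp36 (90.6 to 127 FPKM in LPS+PBM, 39.8 to 89.7 FPKM in LPS) had separate groups, where 1.7% of genes had LPS+PBM all higher. These LPS libraries are also those of LPS against Control at 4 h. At 24 h Klf2 did (22.7 to 30.2 FPKM in LPS+PBM, 11.7 to 19.9 FPKM in LPS), where 1.11% of genes did. Astrocyte markers summed to 1678 to 1851 FPKM in LPS+PBM and 1345 to 1566 FPKM in LPS at 4 h. Most of that sum is Vim (on average 1522 FPKM in LPS+PBM and 1330 FPKM in LPS). Of the astrocyte markers 9 of 10 were above 0 (median 0.73) with 0 called, and their part in these values was not tested.

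Across the 8 groups, PBM at 24 h had the lowest mean in all 10 members. The next group above it had separate libraries in Egr1, Nr4a1 and Klf6 and overlapping libraries in the other 7 members. The top of the order differed. Egr1 and Nr4a1 were highest in Control at 24 h (263 ± 28.5 and 95.4 ± 12.9 FPKM), with overlapping libraries at the next rank. Ier3 was highest in LPS+PBM at 24 h (218 ± 35.2 FPKM), which overlapped LPS at 24 h (206 ± 29.3 FPKM), and Klf6 and Zfp36 in LPS+PBM at 4 h (127 ± 17.9 and 108 ± 14.9 FPKM). Egr2, Ier2, Klf2, Klf4 and Btg2 were highest in Control at 4 h, with overlapping libraries at the next rank. Between members, log2(FPKM + 1) over the 32 libraries was most alike for Egr1 and Nr4a1 (Pearson r = 0.88) and least for Egr2 and Ier3 (r = 0.14), with a median of 0.53 over the 45 pairs. These libraries share groups, so r describes group differences as much as library differences.

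Other genes of the early response were counted from lists chosen with results of these data known. Of 32 other immediate early genes tested, 5 fell in PBM against Control at 24 h and 27 had a fold change below 0 (median -0.71, against 0.00 over all genes). They included the AP-1 subunits Fosb (-2.94 ± 0.32, adjusted p = 9.04e-05), Junb (-2.04 ± 0.23, adjusted p = 9.04e-05) and Fos (-2.35 ± 0.27, adjusted p = 0.000127) and the NF-kappaB cofactor Nfkbiz (-2.43 ± 0.37, adjusted p = 0.00567). Together with the 4 members they made up 9 of the 13 genes that fell in that comparison. At 4 h Fosb (-1.54 ± 0.24, adjusted p = 0.0138) and Nfkbiz (-1.54 ± 0.25, adjusted p = 0.0146) fell. In LPS+PBM against PBM, 12 of the 32 rose at 24 h, where 1.81% of all genes were called higher. At 4 h 6 rose and 1 fell, where 1.8% of all genes were called higher and 110 of 13247 lower. The interaction was called higher in 3 of the 32 at 24 h, where 0.0452% of all genes were.

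Of the relatives of the members (other EGR, NR4A, IER, KLF, BTG and ZFP36 genes and their partners), 0 of 22 passed in PBM against Control at 24 h, with 16 below 0 and a median of -0.56, and 0 of 23 passed at 4 h. In LPS+PBM against PBM at 24 h, Zfp36l1, a paralog of Zfp36 (1.60 ± 0.36, adjusted p = 0.0155), and Nab1, a corepressor of EGR proteins (1.31 ± 0.32, adjusted p = 0.0294), rose. At 4 h Klf10, a factor induced by transforming growth factor beta, rose (1.71 ± 0.42, adjusted p = 0.0312). Of 23 serum response and MAP kinase regulators, 0 passed in PBM against Control at either time, with 17 below 0 at 24 h (median -0.25).

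Among 8980 other genes averaging 5 FPKM or more, those whose levels over the 32 libraries were most like the mean standardized level of the 10 members were Fosb (Pearson r = 0.90), Junb (r = 0.89), Dusp1 (r = 0.84), which encodes a MAP kinase phosphatase, Socs3 (r = 0.79), a feedback inhibitor of cytokine signalling that the study's title names, and Fos (r = 0.77). Socs3 averaged 30.9 ± 10.3 FPKM in LPS+PBM at 24 h, 26.1 ± 8.08 FPKM in LPS, 2.80 ± 2.35 FPKM in PBM and 25.5 ± 5.62 FPKM in Control. Junb averaged 153 ± 36.9, 171 ± 38.8, 35.5 ± 7.98 and 148 ± 25.6 FPKM in LPS+PBM, LPS, PBM and Control at 24 h. Each of the 5 genes had its lowest mean in PBM at 24 h. They were picked for following the members, which are lowest in that group, so this nearly follows from the choice and is no separate result.

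**Figure D3:**
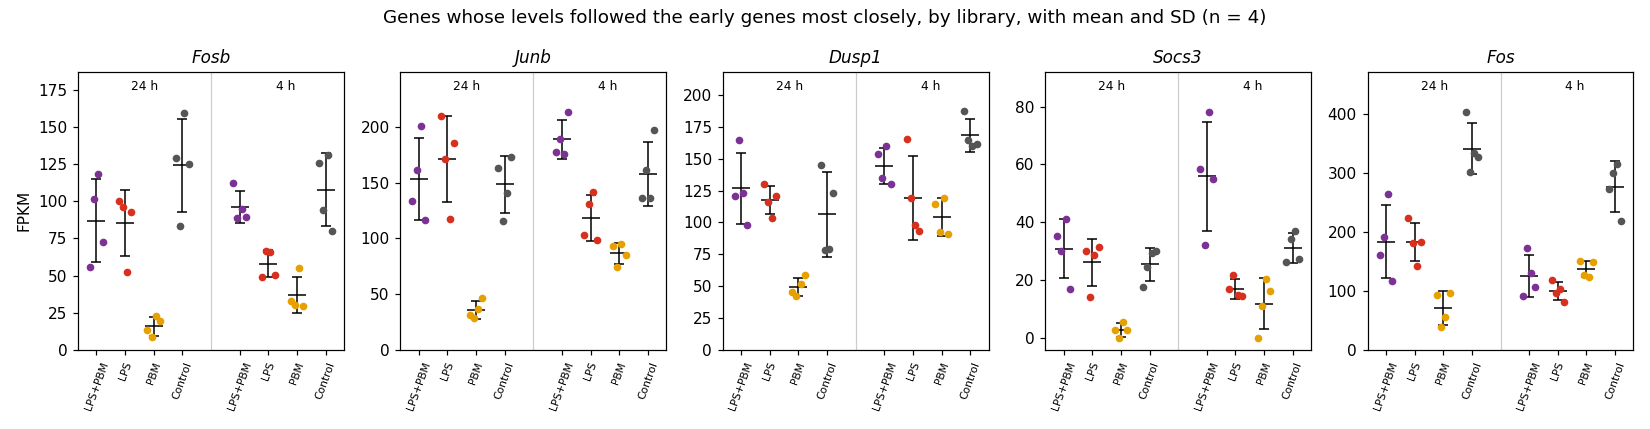
FPKM in each library (points) with the group mean and SD (bars, n = 4) of the 5 genes whose levels over the 32 libraries were most like the early genes, at 24 h on the left and 4 h on the right of each panel. All 5 have their lowest mean in PBM at 24 h, 35.5 FPKM for Junb against 148 FPKM in Control, which nearly follows from picking them by likeness to the early genes.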

How the data were processed

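RNA libraries were made by oligo-dT priming and template switching with PCR, per the labels' protocols, and the authors deposited FPKM values with 2 decimals. The submitters' processing notes list mm10 as build and, among the tools, RSEM, HISAT2, StringTie 1.3.1, Bowtie2 2.2.8 and fastp 0.18.0. They assign none of these to the FPKM values and state no strand. The members, lists and tests were chosen with earlier results of these data known. Genes named were the 10 members, up to 4 called genes per list and comparison, and the 5 genes most like the members.

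Limma 3.58.1 (R 4.3.3, trend and robust) was run on log2(FPKM + 1) for genes averaging 1 FPKM or more in any fitted group. Each time had its own fit of 16 libraries, and comparisons between times used all 32. Calls were made at an adjusted p under 0.05 (Benjamini-Hochberg over all genes tested). Depth was inferred from 4310 genes with 1 transcript, where 92.48% of 23541 values up to 20 fragments were whole within 0.05. PCR copies are not independent molecules. IDs matched GENCODE M21 (GRCm38) in 99.58%. Alternatives were a pseudocount of 0.1, no filter, quantile normalization, the replicate number as a block and leaving out libraries.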

Additional observations from a re-analysis of the deposited data

Results flagged for a closer look

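In 3 of 80 groups of 4 libraries (10 members in 8 groups) 1 library stood apart from the others by Dixon's test, where chance gives about 1 in 20. Egr2 in LPS at 24 h was 88.1 FPKM in replicate 4 and 2.71 to 16.5 FPKM in the others. Klf4 in LPS+PBM at 4 h was 43.9 FPKM in replicate 3 and 66.4 to 70.3 FPKM in the others. Klf4 in LPS at 24 h was 78.4 FPKM in replicate 1 and 38.1 to 40.9 FPKM in the others.

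The PBM effect differed between cultures with and without LPS by the interaction term in limma for Egr1 at 24 h (2.31 on the log2 scale, adjusted p = 8.16e-05) and Nr4a1 at 24 h (5.56, adjusted p = 0.00576). The Nr4a1 call was lost with a pseudocount of 0.1 (adjusted p = 0.263) and without the 6 last-listed libraries (adjusted p = 0.0766). Its PBM values at 24 h rest on about 5.14 fragments in all.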

How the results depend on the processing

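With no filter on low values all 80 member values outside LPS+PBM against LPS, the time differences of the other groups and the 4 h values given without a test kept their direction and side of the threshold, and with a pseudocount of 0.1, quantile normalization and the replicate block 79, 79 and 78 of 80 did. With a pseudocount of 0.1, LPS+PBM against LPS at 4 h called 1 gene and the interaction at 24 h called 1 member. With the replicate number as a block, the interaction at 24 h called 4 genes, and Klf6 lost its calls in PBM against Control at 24 h (adjusted p = 0.0642) and in LPS+PBM against PBM at 4 h (adjusted p = 0.0818). Residuals of same-numbered libraries correlated at -0.024 to 0.031 over 48 pairs, so the numbers were not shown to pair the libraries.

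Leaving out the 6 libraries listed last, out of the order of the others, was chosen after seeing the data. None of the 6 is a Control library. At 24 h LPS loses 2 of its 4 libraries and PBM and LPS+PBM lose 1 each, and at 4 h LPS and LPS+PBM lose 1 each. Calls lost through smaller groups and through these libraries in particular cannot be told apart. Genes called were then 9 for PBM against Control, 180 for LPS+PBM against PBM, 159 for LPS against Control, 0 for LPS+PBM against LPS and 1 for the interaction at 24 h. At 4 h they were 1 for LPS+PBM against LPS and 1 for the interaction. Over time they were 88 in LPS and 258 in LPS+PBM. Members called were 2 for PBM against Control, 4 for LPS+PBM against PBM, 1 for LPS against Control and 1 for the interaction at 24 h. Egr1 in LPS+PBM against PBM at 4 h was -0.088. The cause was not tested.

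With single libraries left out, members called ranged from 2 to 6 (PBM against Control, 24 h), 1 to 2 (LPS against Control, 24 h), 0 to 1 (LPS+PBM, 24 h against 4 h) and 0 to 2 (PBM effect, 24 h minus 4 h). Genes called ranged from 0 to 2 and 1 to 5 for LPS+PBM against LPS at 4 h and 24 h and from 4 to 8 for the interaction at 24 h. Directions turned within ranges of -0.088 to 0.26 (Egr1, LPS+PBM against PBM, 4 h), -0.14 to 0.10 (Ier2) and -0.25 to 0.20 (Zfp36, LPS against Control, 24 h), -0.32 to 0.021 (Zfp36, PBM, 24 h against 4 h), and -0.15 to 0.066 (Btg2) and -0.27 to 0.07 (Zfp36) for the PBM effect between times. At about 137425 fragments per library (median), values under 10 FPKM rest on few fragments, and higher values of short transcripts can too. In PBM at 24 h about 13.98 fragments in all lay behind the Ier3 values and about 17.95 behind those of Ier2.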
